A study of Mus musculus with 6 samples.

Results

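MCP-5, the protein of mouse Ccl12, its receptor gene Ccr2 and the neighbouring chemokine genes Ccl2, Ccl7, Ccl8 and Ccl11 were followed in embryonic mouse limb tissue. The 6 genes were taken by their names in the scanner files, with every probe that carries such a name, and not by their values. They were 6 of 19505 genes and 8 of 41174 probes on the array. Ccr2 and Ccl7 had 2 probes each, and the single probe of Ccl2 was printed as 10 spots.

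Chemokines are small secreted proteins that guide migrating leukocytes. The products of Ccl12 (MCP-5), Ccl2 (MCP-1) and Ccl7 (MCP-3) bind CCR2, a G-protein-coupled receptor through which monocytes leave the bone marrow and enter tissues. Mouse CCL8 (MCP-2) acts mainly through CCR8, and CCL11 (eotaxin) draws eosinophils through CCR3. Macrophages populate the embryonic limb, where they clear dying cells between the digits, and TGF-beta signalling through the type II receptor TGFBR2 takes part in joint formation.

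The tissue was the autopod, the hand or foot plate, of C57BL/6 embryos at stage E14.5, and the study asked how TGF-beta signalling acts on the forming joint and on MCP-5 there. The groups were Tgfbr2Prx1KO interzone, growth plate and interdigital tissue, against the same 3 tissues of control littermates, with 1 array each and 6 arrays in all. The interzone is the band of cells where a joint will form, the growth plate is the cartilage beside it, and the interdigital tissue lies between the digits. Cells were cut out by laser-capture microdissection from 2 mutant and 2 control embryos, and their RNA was amplified by PCR before labelling. The sources used here do not give which embryos or how many cells lay behind an array, nor the alleles of the controls. By convention the mutant name means that Tgfbr2 was deleted by a recombinase driven by the Prx1 promoter, which is active in limb mesenchyme, so leukocytes, epidermis and endothelium would keep the gene. For 5 samples the description speaks of irradiated human blood, against a title and organism of mouse limb, and groups were taken from the titles.

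Levels are log2 signals relative to the 75th percentile of the same array, so 0 is that percentile. A probe counts as detected when the scanner software marked it well above background. With 1 array per group there is no replicate spread and no test: a gene is called higher or lower when it is detected on both arrays and differs at least 2-fold. A gene detected on only 1 array of a pair has a bound, written as at least N-fold, where the undetected side is set to the lowest detected level of that array, or to its own reading if this is higher. Levels of different genes come from different probes and are not set against each other.

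The growth plate control array stood apart, with a median signal of 103 against 340 to 502 on the other 5 arrays and 72.3% of spots well above background against 77.3% to 88.3%. Every comparison of mutant with control growth plate, and of control growth plate with another tissue, rests on it and cannot be given without it. Slide 1 held the interzone mutant array and the 3 control arrays, and slide 2 the other 2 mutant arrays, so genotype and slide cannot be told apart in growth plate and interdigital tissue, while the interzone pair lay on 1 slide. Gdf5, a defining interzone gene, had levels of 2.10, 0.22 and 2.38 in mutant interzone, growth plate and interdigital tissue and 4.33, 2.19 and 1.21 in the matching controls, so it was highest in control interzone. The cartilage gene Matn1 was at -4.78, -2.53 and -1.06 in the mutants and 1.62, 5.18 and 0.16 in the controls in the same order of tissues, highest in control growth plate and 209-fold lower in mutant than in control growth plate. Among the mutant arrays Gdf5 and Matn1 were both highest in interdigital tissue. These 2 genes therefore did not mark out the mutant interzone and mutant growth plate arrays. Msx1, listed for interdigital mesenchyme, was at 0.09 in mutant and 0.65 in control interdigital tissue but at 2.35 in control interzone. Msx1 therefore did not set the interdigital arrays apart. The cartilage list had medians of 0.25, 0.28 and -0.02 in mutant interzone, growth plate and interdigital tissue, not highest where Matn1 was. The interdigital mesenchyme list had 0.10, -0.43 and 0.26 in the mutants and 0.12, -2.87 and -0.09 in the controls. It was thus highest in interdigital tissue among the mutants but in interzone among the controls. The interzone list median, like Gdf5, was highest in interdigital tissue among the mutants. The brightest Tgfbr2 probe was detected on all 6 arrays, at 2.24, 1.20 and 1.92 in the mutants and 2.42, -2.40 and 2.50 in the controls. The deleted part of Tgfbr2 is not named in the labels, so its probes do not check the genotype.

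The 6 chemokine probes lie on mouse chromosome 11 and those of Ccr2 on chromosome 9, by positions in the scanner files, for which the sources used here name no build. Ccl2 was probed at chr11:82118723-82118782, Ccl7 at chr11:82128577-82128636 and chr11:82128729-82128788, Ccl11 at chr11:82144145-82144204, Ccl12 at chr11:82184783-82184842, and Ccl8 at chr11:82198181-82198240. The Ccr2 probes lie at chr9:123827135-123827194 and chr9:123827706-123827765. In the RefSeq gene order the genes follow each other as Ccl2, Ccl7, Ccl11, Ccl12 and Ccl8, with Ccl1 next.

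The promoters of Ccl12 and of its direct neighbour Ccl8 are shown because these adjacent genes differed in how far they varied between arrays. Each runs from 250 bases before to 50 bases after the gene's start in RefSeq on GRCm38.p6, plus strand, at chr11:82101595-82101894 for Ccl12 and chr11:82114935-82115234 for Ccl8. Capitals mark the motif matches found.
Ccl12: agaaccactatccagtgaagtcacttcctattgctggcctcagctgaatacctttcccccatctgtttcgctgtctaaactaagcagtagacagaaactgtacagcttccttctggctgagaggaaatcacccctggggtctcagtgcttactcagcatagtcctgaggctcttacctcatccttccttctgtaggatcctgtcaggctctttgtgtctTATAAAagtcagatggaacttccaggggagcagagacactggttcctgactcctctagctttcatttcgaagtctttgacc
Ccl8: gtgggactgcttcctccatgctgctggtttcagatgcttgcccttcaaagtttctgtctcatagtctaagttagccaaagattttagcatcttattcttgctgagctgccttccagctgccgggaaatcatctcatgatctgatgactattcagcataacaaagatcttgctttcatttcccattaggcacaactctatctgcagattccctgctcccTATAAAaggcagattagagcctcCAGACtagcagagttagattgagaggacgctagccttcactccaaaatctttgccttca
The search for 6 motifs covered both strands, and the matches overlapped no other motif. The TATA box TATAAA begins 31 bases before the start of Ccl12 and 32 bases before that of Ccl8, and 13.6% of 32851 mouse promoters of this length hold it. The short Smad element CAGAC begins 9 bases before the start of Ccl8 and is held by 49.6% of promoters. In these windows Ccl12 showed no CAGAC, and neither gene showed the Smad box GTCTAGAC (0.213% of promoters), the AP-1 site TGANTCA (7.81%), an NF-kB-like pattern of GGG and CC with 5 free bases between (50.8%) or the STAT site TTCNNNGAA (8.30%). The Ccr2 promoter held none of the 6 motifs. A match is a description of the letters, not of a bound site.

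Ccl12 was detected in mutant interzone and not in control interzone, was lower in mutant than in control interdigital tissue, and was within 2-fold in growth plate. Its scanner signal was 543 ± 54.5 in mutant interzone, against 5.32 ± 2.58 in control interzone, where ± is the software's error estimate for the spot. In growth plate it was 1142 ± 114 in the mutant, against 1201 ± 120 in the control. Interdigital tissue gave 22.7 ± 3.09 in the mutant, against 147 ± 14.9 in the control. The corresponding levels were -1.76, -0.82 and -6.59 in mutant interzone, growth plate and interdigital tissue, against -8.24 (not detected), 0.14 and -3.61 in the controls. The mutant arrays thus ran growth plate, interzone, interdigital tissue from high to low, and the control arrays growth plate, interdigital tissue, interzone.

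**Figure D1:**
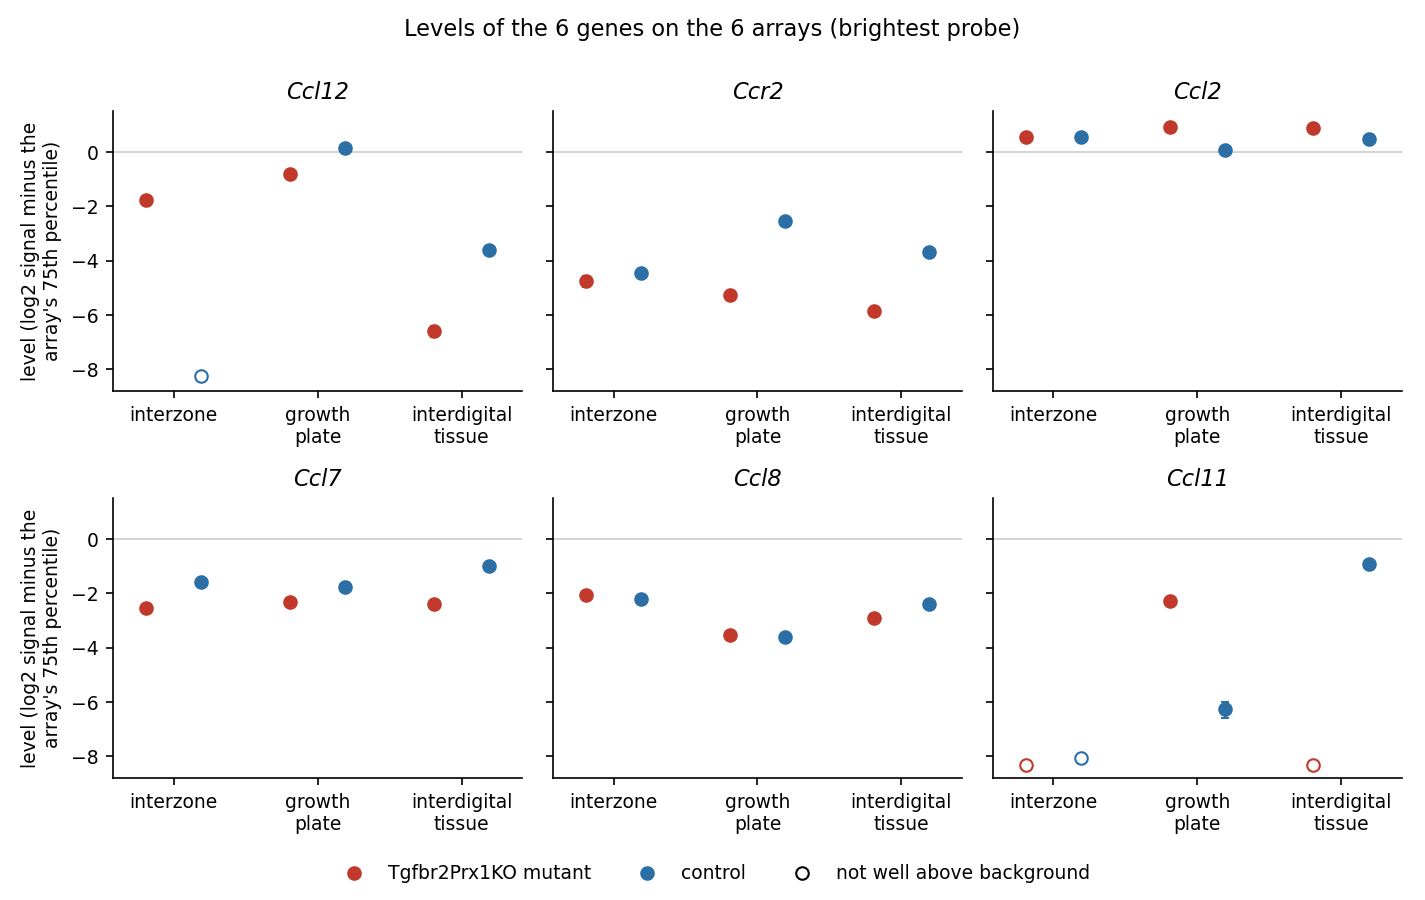
Level of each gene (log2 signal relative to the array's 75th percentile, brightest probe) in Tgfbr2Prx1KO mutant and control tissue, 1 point per array. Open circles are not well above background and carry no error bar. Error bars, mostly smaller than the points, are the scanner software's error of the spot, and for Ccl2 the SD of its spots. Ccl12 is at -1.76 in mutant interzone and undetected in control interzone, and Ccl2 stays between 0.07 and 0.93 on all 6 arrays.

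In interzone, Ccl12 was at least 38.3-fold higher in the mutant than in the control, a log2 bound of 5.26. Of 18086 genes with a difference or bound in this pair, 201 lay at least as far up. It was the only 1 of the 6 genes past 2-fold here, and 1.56% of genes had a bound of at least 2-fold higher and 4.08% one lower. In interdigital tissue Ccl12 was 7.89-fold lower in the mutant, a log2 difference of -2.98, and 326 of 18455 genes lay at least as far down. With normexp, another background correction, the interzone bound was 11.4-fold and the interdigital difference 2.99-fold. In growth plate the log2 difference was -0.96 (1.95-fold lower in the mutant), just inside the 2-fold line. Relative to the median of all genes in that pair, which was -0.45, it was -0.51. In the authors' deposited table, scaled by array medians, that median was -1.56 and Ccl12 was 4.21-fold lower in mutant growth plate, again -0.51 relative to it. The call in growth plate therefore depends on the scaling, while the interzone and interdigital directions held under all 9 settings tried, the reported one included. Only settings that change the background correction, normalization or scaling could have turned these directions. In captured tissue like this, fewer cells of a type and less RNA per cell cannot be told apart.

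Over the 5 arrays that detected it, of both genotypes, Ccl12 spanned 106-fold, between mutant interdigital tissue and control growth plate. Between tissues of the mutants it was 28.4-fold higher in interzone than in interdigital tissue, 54.5-fold higher in growth plate than in interdigital tissue, and 1.92-fold lower in interzone than in growth plate. In the controls it was at least 143-fold lower in interzone than in growth plate, at least 10.7-fold lower in interzone than in interdigital tissue, and 13.4-fold higher in growth plate than in interdigital tissue. The only neighbours in either order that stayed within 2-fold were mutant growth plate and mutant interzone.

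Ccr2, the receptor gene, was lower in mutant growth plate and mutant interdigital tissue and within 2-fold in interzone. Its brightest probe had signals of 68.3 in mutant and 73.5 in control interzone, 52.4 in mutant and 187 in control growth plate, and 37.6 in mutant and 140 in control interdigital tissue. The levels were -4.75, -5.27 and -5.86 in the mutants and -4.45, -2.54 and -3.69 in the controls, and the growth plate and interdigital control levels were the 2 highest of the 6. The mutant was lower by 1.23-fold in interzone, by 6.61-fold in growth plate and by 4.51-fold in interdigital tissue. The second Ccr2 probe was at -8.83 (not detected), -9.04 (not detected) and -5.07 in the mutants and -7.22 (not detected), -4.90 and -2.42 in the controls. It was at least 5.85-fold lower in mutant growth plate and 6.26-fold lower in mutant interdigital tissue, so both probes gave the same direction in these pairs. With normexp Ccr2 was 3.90-fold higher in mutant interzone, so its interzone call depends on the processing. It was lower in mutant growth plate by 3.56-fold with normexp, 10.3-fold with quantile normalization and 14.3-fold in the authors' deposited table, and lower in mutant interdigital tissue by 2.41-fold with normexp.

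**Figure D2:**
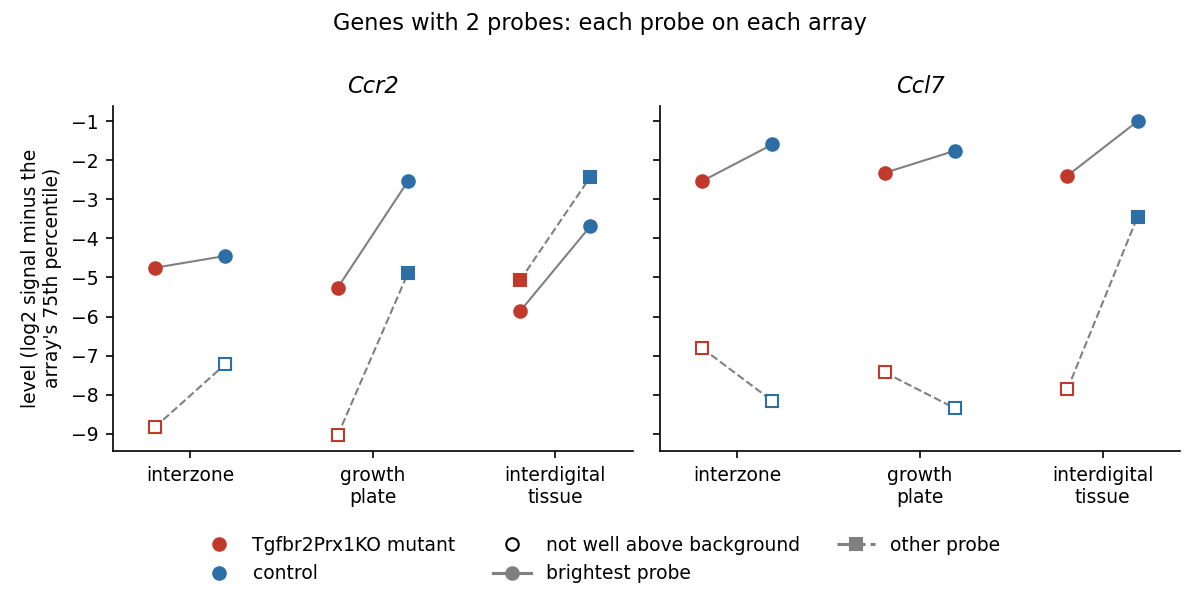
Levels (log2 signal relative to the array's 75th percentile) of both Ccr2 probes and both Ccl7 probes in mutant and control tissue, lines joining the mutant and control arrays of a tissue. Circles are the brightest probe, squares the other, and open symbols are not well above background. Both Ccr2 probes are lower in mutant growth plate and interdigital tissue, and the second Ccl7 probe is detected only in control interdigital tissue.

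Tissue order of Ccr2 differed between its probes. In the controls the brightest probe was 3.75-fold lower in interzone than in growth plate and 2.21-fold higher in growth plate than in interdigital tissue, where the second probe had a log2 difference of -2.47. In the mutants the brightest probe was 2.16-fold higher in interzone than in interdigital tissue, while the second probe gave a log2 bound of -1.43. No tissue order of Ccr2 can be read where the probes differ in direction.

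Ccl2, which encodes the chief CCR2 ligand MCP-1, varied least of the 6 genes, by 1.81-fold between its highest and lowest array. Its 10 spots give the repeatability of 1 probe on 1 array. The levels were 0.57, 0.93 and 0.90 in mutant interzone, growth plate and interdigital tissue, against 0.54, 0.07 and 0.48 in the controls. Spots of 1 array differed by an SD of 0.05 to 0.10 on the log2 scale, with signals of 2412 to 3053 in mutant interzone and 2052 to 2589 in control interzone. Ccl2 was 1.03-fold, 1.81-fold and 1.34-fold higher in mutant interzone, growth plate and interdigital tissue than in their controls, all under 2-fold. Mutant and control spots did not overlap in growth plate and interdigital tissue, but spots of 1 array are not replicates of a condition. In growth plate Ccl2 was 2.35-fold higher in the mutant when only probes detected on all arrays set the percentile, and 1.20-fold lower in the authors' deposited table.

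**Figure D3:**
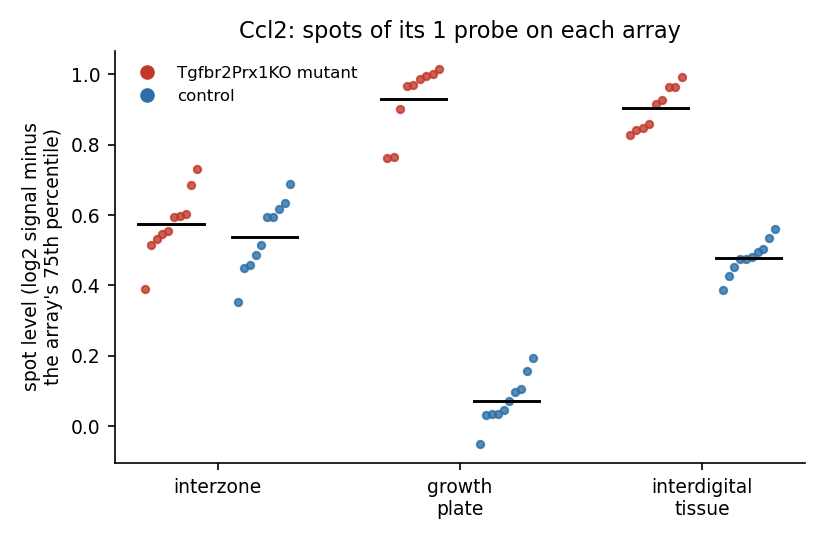
Level of each spot of the Ccl2 probe (log2 signal relative to the array's 75th percentile) in mutant and control tissue, with the array mean as a line. Mean levels are 0.57, 0.93 and 0.90 in mutant interzone, growth plate and interdigital tissue, against 0.54, 0.07 and 0.48 in the controls, and spots within an array lie close together.

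Ccl7, another CCR2 ligand gene, was lower in mutant interdigital tissue and within 2-fold in the other pairs. The brightest probe had levels of -2.53, -2.32 and -2.40 in mutant interzone, growth plate and interdigital tissue, against -1.60, -1.76 and -1.002 in the controls, so each mutant array lay below its control. The mutant was lower by 1.92-fold in interzone, by 1.48-fold in growth plate and by 2.63-fold in interdigital tissue. In growth plate it was 2.34-fold lower with quantile normalization and 3.20-fold lower in the authors' deposited table. In interzone the direction turned with normexp, to a log2 difference of 0.24, and with the mean over both probes, to 0.20. In growth plate it turned with the mean over both probes, to 0.18. The second probe was detected on 1 array only, control interdigital tissue, at -3.44, with -7.86 in mutant interdigital tissue, at least 20.3-fold lower in the mutant. Between tissues of 1 genotype the brightest probe stayed within 2-fold in all 6 comparisons.

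Ccl8, the MCP-2 gene beside Ccl12, stayed within 2-fold between mutant and control in all 3 tissues. Its levels were -2.06, -3.52 and -2.90 in mutant interzone, growth plate and interdigital tissue, against -2.19, -3.59 and -2.39 in the controls. The mutant was 1.09-fold higher in interzone, 1.05-fold higher in growth plate and 1.42-fold lower in interdigital tissue. In growth plate it was 2.06-fold lower with quantile normalization and 2.07-fold lower in the authors' deposited table. By tissue it was higher in interzone than in growth plate, 2.75-fold in the mutants and 2.64-fold in the controls. In the controls it was also 2.29-fold lower in growth plate than in interdigital tissue, a direction that turned with quantile normalization and in the authors' deposited table. The control difference between interzone and growth plate was 1.104-fold with quantile normalization and 1.15-fold in the authors' deposited table.

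Ccl11, the eotaxin gene, was higher in mutant growth plate, lower in mutant interdigital tissue and undetected in both interzone arrays. In growth plate the signal was 419 in the mutant, against 14.3 in the control. Interdigital tissue gave 6.90 in the mutant, not detected, against 944 in the control. Levels were -8.34 (not detected), -2.27 and -8.31 (not detected) in mutant interzone, growth plate and interdigital tissue, against -8.05 (not detected), -6.25 and -0.93 in the controls, and 3 of 6 arrays detected it. It was 15.8-fold higher in mutant growth plate, where 1449 of 17781 genes lay at least as far up and the control level lay close to the lowest level well above background, -6.54. In mutant interdigital tissue it was at least 116-fold lower, and 5 of 18455 genes lay at least as far down. The growth plate difference was 3.86-fold with normexp, 6.23-fold with quantile normalization and 7.30-fold in the authors' deposited table, and the interdigital bound was 18.2-fold with normexp.

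Ccl11 also differed between tissues of 1 genotype. In the mutants it was at least 18.7-fold lower in interzone than in growth plate and at least 45.8-fold higher in growth plate than in interdigital tissue. In the controls it was at least 68.3-fold lower in interzone than in interdigital tissue and 40.0-fold lower in growth plate than in interdigital tissue.

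Over the 6 genes, the counts in each pair can be read against all genes. In interzone 4 were measured on both arrays and none was past 2-fold, while 17.8% of all genes were higher and 22.7% lower. In growth plate all 6 were measured, 1 was higher and 1 lower, against 22.1% of all genes higher and 32.6% lower, with bounds higher in 5.79% and lower in 2.34%. In interdigital tissue 5 were measured, none was higher and 3 were lower, against 10.1% of all genes higher and 16.0% lower, and Ccl11 had a bound of at least 2-fold lower, as 1.91% of genes did, while 0.886% had one higher. The median log2 difference over the measured members was -0.13, -0.25 and -1.39 in interzone, growth plate and interdigital tissue, against -0.11, -0.45 and -0.18 over all genes.

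Between mutant tissues, interzone against growth plate gave 1 of 5 measured genes higher and none lower, with Ccl11 as a lower bound, while 21.3% of all genes were higher, 18.2% lower, 2.19% bounded higher and 2.6% bounded lower. Mutant interzone against interdigital tissue gave 2 of 5 higher and none lower, with 18.2% of all genes higher, 18.0% lower, 0.911% bounded higher and 3.54% bounded lower. Mutant growth plate against interdigital tissue gave 1 of 5 higher and none lower, with Ccl11 bounded higher, while 13.2% of all genes were higher, 16.2% lower, 0.787% bounded higher and 2.6% bounded lower. None of the 6 genes was lower on 2 detected arrays in these comparisons of mutant tissues. In the controls, interzone against growth plate gave 1 of 4 higher, 1 of 4 lower and Ccl12 bounded lower, with 24.9% of all genes higher, 23.9% lower, 6.67% bounded higher and 1.15% bounded lower. Control interzone against interdigital tissue gave none of 4 past 2-fold and Ccl12 and Ccl11 bounded lower, with 14.6% of all genes higher, 14.9% lower, 1.24% bounded higher and 2.19% bounded lower. Control growth plate against interdigital tissue gave 2 of 6 higher and 2 lower, with 24.8% of all genes higher, 24.9% lower, 0.545% bounded higher and 7.07% bounded lower. These counts use the brightest probe of each gene. By it Ccr2 counts as higher in mutant interzone and in control growth plate, each against interdigital tissue, where its second probe was lower.

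**Figure D4:**
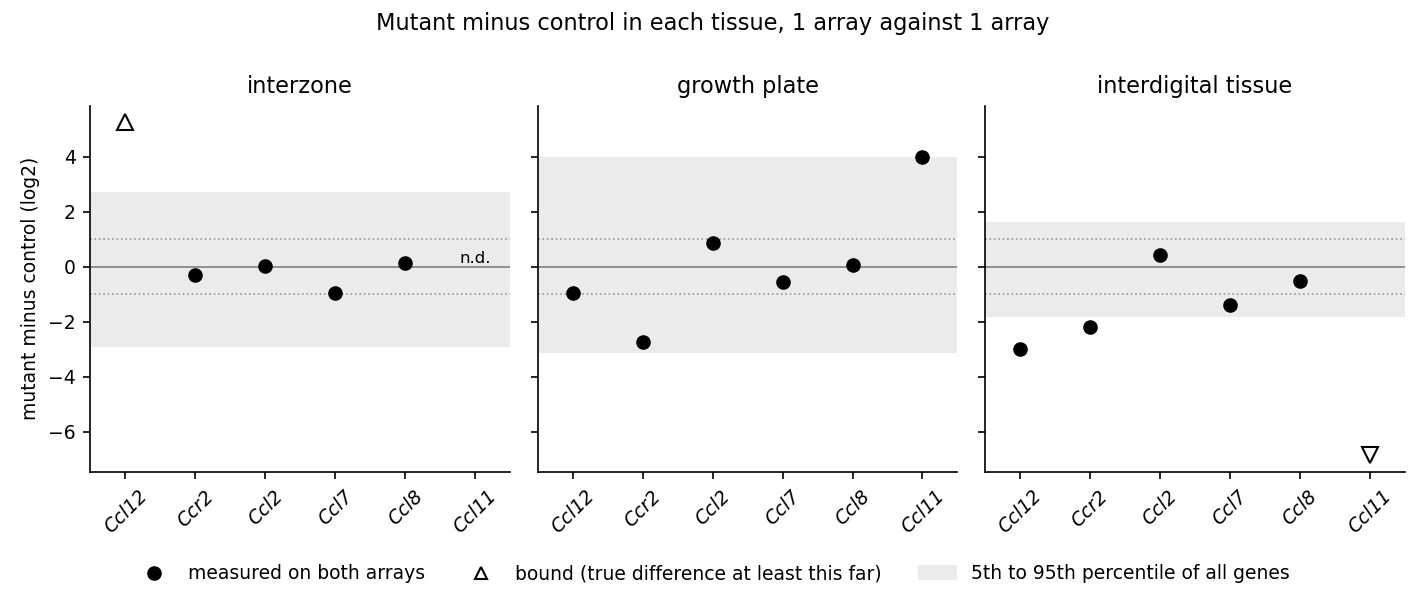
Mutant minus control log2 difference of each gene in each tissue, 1 array against 1 array, with the 2-fold lines dotted and the 5th to 95th percentile of all genes shaded. Triangles, pointing up or down, are bounds and n.d. marks a gene undetected on both arrays. Ccl12 lies above the band in interzone and below it in interdigital tissue, and Ccl11 lies near the upper edge in growth plate and below the band in interdigital tissue.

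Genes with 2 measured probes show how far a difference can depend on the probe. The gap between the 2 probes' mutant minus control differences had a median of 1.21 on the log2 scale over 4570 genes in interzone, 1.57 over 4324 genes in growth plate and 0.74 over 5027 genes in interdigital tissue. A 2-fold difference at 1 probe is thus within the usual disagreement of probes in interzone and growth plate. In interdigital tissue 38.5% of these genes had a gap over 1. The 90th percentile of the gap was 3.73 in interzone, 4.98 in growth plate and 2.43 in interdigital tissue, so larger differences can also depend on the probe. Ccl12, Ccl8 and Ccl11 each rest on 1 probe.

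The counts of the gene lists that follow are to be read against the same shares of all genes: 17.8% higher and 22.7% lower in mutant interzone, 22.1% and 32.6% in mutant growth plate, and 10.1% and 16.0% in mutant interdigital tissue. Of the monocyte and macrophage genes, which mark cells that can carry CCR2, 18 were measured in interzone, and 10 were higher, 2 lower and 6 within 2-fold. Their median was 1.32, against -0.11 over all genes. In growth plate 4 were higher, 6 lower and 7 within 2-fold of 17 measured, close to the shares of all genes, and 2 more had a bound lower. In interdigital tissue 1 was higher, 5 lower and 13 within 2-fold of 19 measured. The medians in these tissues were -0.52 and -0.63, against -0.45 and -0.18 over all genes. The summed linear level of the list, as log2, was 4.46 in mutant and 2.98 in control interzone, 3.02 in mutant and 4.18 in control growth plate, and 4.13 in mutant and 4.67 in control interdigital tissue. The list's part in the Ccl12 and Ccr2 differences was not tested.

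Single macrophage genes did not all go 1 way. In interzone Ptprc, the pan-leukocyte gene for CD45, was 120-fold lower in the mutant, while Mrc1, the mannose receptor, was at least 54.2-fold higher. Tyrobp, a signalling adaptor of myeloid cells, was at 1.48 in the mutant and -3.55 in the control, 32.6-fold higher, and Cd68, a lysosomal protein, was 18.4-fold higher. In growth plate Mrc1 was at least 346-fold lower and Laptm5, a lysosomal protein of leukocytes, 339-fold lower in the mutant, while Tyrobp was 13.3-fold higher and Adgre1, which encodes F4/80, 12.6-fold lower. In interdigital tissue Ptprc was 21.7-fold lower, Lyz2 (lysozyme) 4.82-fold lower and Ctss, a lysosomal protease, 3.32-fold higher in the mutant. Each array detected between 17 and 19 of the 19 genes, and Mrc1 was not detected in control interzone or mutant growth plate, nor Ptprc in mutant growth plate.

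**Figure D5:**
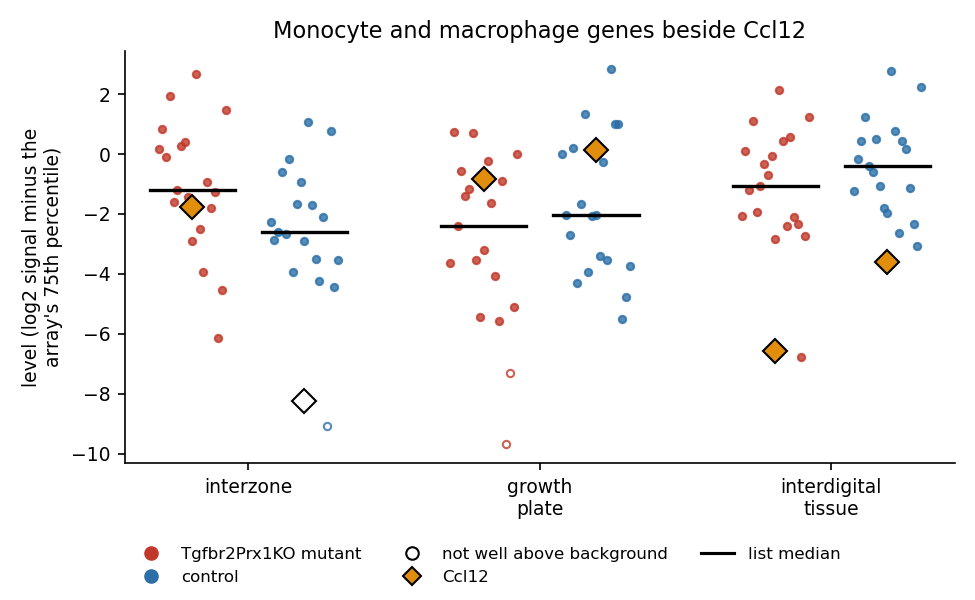
Levels (log2 signal relative to the array's 75th percentile) of 19 monocyte and macrophage genes as dots, with their median as a line and Ccl12 as a diamond, in mutant and control tissue. Open symbols are not well above background. The list's summed level (log2) is 4.46 in mutant and 2.98 in control interzone, 3.02 in mutant and 4.18 in control growth plate, and 4.13 in mutant and 4.67 in control interdigital tissue.

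Of the neutrophil, eosinophil and mast cell genes measured, 2 of 10 were higher and 2 lower in mutant interzone, 2 of 10 higher and 6 lower in mutant growth plate, and 2 of 12 higher and 2 lower in mutant interdigital tissue, with S100a9, a neutrophil gene, 12.9-fold lower there. Cpa3 and Cma1, proteases of mast cells, were past 2-fold in every pair. Cpa3 was at least 76.3-fold higher in mutant interzone, 6.54-fold lower in mutant growth plate and 8.92-fold higher in mutant interdigital tissue. Cma1 was 5.65-fold higher, 5.06-fold lower and 3.98-fold higher in the same pairs. The other mast cell genes listed, Mcpt4, Tpsb2 and Kit, did not follow in every pair. In mutant interzone they were 1.24-fold higher, 1.98-fold lower and 2.32-fold lower. In mutant growth plate they were 1.57-fold, 3.72-fold and 3.69-fold lower, and in interdigital tissue all stayed within 2-fold. The eosinophil receptor gene Ccr3, whose protein binds CCL11, had a log2 difference of 0.10 in interzone. It was lower by 2.02-fold in mutant growth plate and by 2.20-fold in mutant interdigital tissue. Other eosinophil genes went both ways in mutant growth plate, with Epx 3.17-fold higher, Siglecf 2.98-fold lower, Il5ra at least 1.97-fold lower and Prg2 within 2-fold. In mutant interdigital tissue Siglecf was 2.06-fold lower and Il5ra at least 2.47-fold lower, while Epx and Prg2 stayed within 2-fold. The part of eosinophils in the Ccl11 differences was not tested. Markers of other tissues also moved: of the epidermal genes 9 of 10 measured were higher in mutant interzone, 4 of 8 in mutant growth plate and 8 of 8 in mutant interdigital tissue. None was lower, and 2 more had a bound higher in growth plate and 2 in interdigital tissue. Of 9 measured skeletal muscle genes, 7 were higher and none lower in mutant interzone, and 6 lower and none higher in mutant growth plate. In mutant interdigital tissue 1 was higher and 3 were lower. Of the growth plate cartilage genes 14 of 15 were lower in mutant growth plate. In mutant interzone 7 of 15 were lower, in mutant interdigital tissue 3 of 15, and none was higher in any pair. Of the interzone genes 6 of 9 were lower and none higher in mutant interzone, with 1 more bounded lower. In mutant growth plate 3 of 9 were lower and none higher, and in mutant interdigital tissue 4 of 10 were higher and 1 lower. Endothelial genes were higher in 4 of 10 and lower in 2 of 10 in mutant interzone. In mutant growth plate 4 of 7 were higher and none lower, and 3 more had a bound higher. In mutant interdigital tissue none was higher and 4 of 10 were lower. Erythroid genes gave none higher and 2 lower of 6 in mutant interzone, 1 higher and 4 lower in mutant growth plate, and 1 higher and 2 lower in mutant interdigital tissue. Housekeeping genes stayed within 2-fold in 8 of 9, 8 of 8 and 9 of 9 measured in interzone, growth plate and interdigital tissue. The exception, Tbp, was 5.82-fold higher in mutant interzone. In growth plate Tbp was not detected in the control and was at least 79.5-fold higher in the mutant. The part of the marked tissues in the chemokine differences was not tested.

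Of the other CC chemokine genes of chromosome 11 that were measured, 1 of 4 was higher and 1 of 4 lower in mutant interzone, 1 of 4 lower in mutant growth plate, and 2 of 5 lower in mutant interdigital tissue. Ccl6 was 4.47-fold higher and Ccl1 3.12-fold lower in mutant interzone. Ccl9 was 3.37-fold lower in mutant growth plate and 5.98-fold lower in mutant interdigital tissue, and Ccl4 was 3.54-fold lower in mutant interdigital tissue. Among other receptors and scavengers of these ligands, none was higher and 1 of 5, 3 of 5 and 1 of 5 were lower in mutant interzone, growth plate and interdigital tissue. Ccr8, the receptor of mouse CCL8, was 5.57-fold lower in mutant interzone, and Ackr2, a decoy receptor that takes up CC chemokines, was 8.71-fold lower in mutant growth plate.

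Of 15 genes that carry the CCR2 signal, 2 were higher and 3 lower in mutant interzone, 3 higher and 3 lower in mutant growth plate, and none higher and 3 lower in mutant interdigital tissue. Jak2, a kinase, was 3.504-fold higher and Rac2, a leukocyte GTPase, 4.83-fold higher in mutant interzone, while Pik3cg, a leukocyte lipid kinase, was 2.77-fold lower there and 12.2-fold lower in mutant interdigital tissue. In mutant growth plate Mapk3, a MAP kinase, was 6.86-fold higher and Arrb1, an arrestin, 6.85-fold lower. The list's counts lay near the shares of all genes in interzone and below them in growth plate, and its medians were -0.09, -0.07 and -0.28, against -0.11, -0.45 and -0.18 over all genes.

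Of the genes that induce MCP chemokines, which hold NF-kB, AP-1 and STAT factors and inflammatory cytokines, 6 were higher and 3 lower of 23 measured in mutant interzone. In growth plate 5 were higher and 8 lower of 20, and 3 more had a bound higher. In interdigital tissue 1 was higher and 1 lower of 23, and 1 more had a bound lower. Nfkbiz, a nuclear NF-kB cofactor, was 11.9-fold higher in mutant interzone, Rela, an NF-kB subunit, 4.07-fold lower and Il1b, a cytokine, 3.81-fold higher. In mutant growth plate Il1r1, the interleukin 1 receptor, was at least 85.7-fold higher, Fos at least 84.2-fold, Nfkb1 at least 70.5-fold, Jun 15.3-fold and Nfkbiz 14.53-fold. The bounds among these are for genes not detected on the growth plate control array, which stood apart in signal. The largest falls of the list there were in Stat6, 5.77-fold lower, and Myd88, 5.62-fold lower. TGF-beta response genes gave 1 higher and 1 lower of 9 in mutant interzone, 1 higher and 4 lower of 7 in mutant growth plate with 2 more bounded higher, and none higher and 2 lower of 9 in mutant interdigital tissue. Tgif1, a Smad corepressor, was at least 377-fold higher in mutant growth plate. Tgfbi, a matrix protein named for its induction by TGF-beta, was 11.2-fold lower in mutant interzone and 89.3-fold lower in mutant growth plate.

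The genes most like Ccl12 over the 6 arrays, by Pearson's r of levels, were Akap17b (0.936), Tmem8b (0.886), Chgb (0.875), Mtmr12 (0.846) and Mal (0.834), among 63 genes detected on exactly the same arrays. By this choice all 63 share the undetected reading in control interzone, where these 5 lay between -9.23 and -7.05. A high r with Ccl12 is thus partly built in. Those most like Ccr2 were Trim37 (0.998), Rian (0.992), Nog (0.992), Lyn (0.992) and Ighm (0.991), among 13763 genes. The 6 points share array scaling and amplification, and the values are descriptions.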

How the data were processed

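Arrays were Agilent 1-colour mouse arrays of design Agilent-014868, read with Feature Extraction 9.5.1.1 per the file headers. The deposited scanner files give spot intensity, of which the background-subtracted, processed intensity was used, per the file headers. The authors' deposited table holds a linear ratio, the processed signal over its array's median, as found from the scanner values. Outlier and control spots were left out, spots of a probe averaged, and log2 taken minus the array's 75th percentile. Probes were named through RefSeq accessions (22951), symbols (6659) or older symbols (3109), and 8455 stayed unnamed. A gene is represented by its probe of highest mean. No spot was saturated, and 1 array per group limits precision, so no p-values were computed. Named genes were the members, the 5 genes most like Ccl12 and Ccr2, the targeted gene Tgfbr2, and some members of 15 fixed lists past 2-fold, largest first. Gdf5, Matn1, Msx1, Ccr3, Epx, Siglecf, Il5ra, Prg2, Cma1, Mcpt4, Tpsb2 and Kit were picked out of this order. One result of this rule is not reported here. Members and lists were chosen with earlier results of these data known. Alternatives were normexp background correction (offset 50), quantile normalization, the percentile over probes detected on all arrays, the authors' table, the mean over probes, another detection mark, no filter and a 4-fold threshold. The script was tested on simulated data. Software was Python 3.11.15, numpy 2.4.6, pandas 2.3.3, R 4.3.3 and limma 3.58.1.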

Additional observations from a re-analysis of the deposited data

Results flagged for a closer look

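Ccl12 differed in opposite directions between tissues: the mutant minus control log2 difference was a bound of 5.26 in interzone and -2.98 in interdigital tissue. Ccl11 did so as well, with 3.98 in growth plate and a bound of -6.86 in interdigital tissue. Each tissue has 1 array per genotype, so the difference between tissues was not tested.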

How the results depend on the processing

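Ccl12 was higher in mutant interzone and lower in mutant interdigital tissue under all 9 settings, the reported one included. The mean over probes, the other detection mark, no filter and the 4-fold threshold could not turn these directions. Its interzone difference was 3.52 with normexp, and 6.48 with the other detection mark or with no filter. Its interdigital difference was -1.58 with normexp. In growth plate it was -2.07 in the authors' deposited table. With normexp 5393 genes were higher and 2083 lower in mutant interzone, against 2963 and 3792 as reported. With the authors' values, 2110 were higher and 10445 lower in mutant growth plate, against 3580 and 5273. At 4-fold, 1320 were higher and 1708 lower in mutant interzone, 2219 and 2011 in growth plate, and 594 and 686 in interdigital tissue. Of the genes past 2-fold, 43.9% were higher in mutant interzone (72.1% with normexp, 54.3% in the authors' table). In mutant growth plate 40.4% were higher (54.4% with the percentile over detected probes, 16.8% in the authors' table, 50.7% with the mean over probes, 52.5% at 4-fold). In mutant interdigital tissue 38.6% were higher (49.2% with quantile normalization, 51.2% in the authors' table). Of 112 other values of members between mutant and control, 89 kept their call and moved under 1.5-fold, 23 moved, and none that was past 2-fold turned its direction. Values within 2-fold could turn, as Ccl2 in growth plate (-0.26 in the authors' table) and Ccr2 in interzone (1.96 with normexp) did. Of 279 tissue values, 214 stayed, 61 moved and 4 that were past 2-fold turned their direction: Ccl8 in control growth plate minus interdigital tissue was 0.40 with quantile normalization and 0.26 in the authors' table, and with the mean over probes Ccr2 was -0.66 in control growth plate minus interdigital tissue and -1.33 in mutant interzone minus interdigital tissue. The causes were not tested. Within a tissue no paired analysis was possible because each group has 1 array and the labels carry no replicate numbers. A fit over all 6 arrays with tissue as a block, which would average the genotype difference over tissues, was not run. Dim probes limit Ccl12 and Ccl11, whose differences are bounds where 1 array was not well above background.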
